A study of Mus musculus with 16 samples.

Results

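The genes described here encode the calcium switch of the thin filament. They were the troponins Tnni3, Tnni1, Tnni2, Tnnt2, Tnnt1 and Tnnc1 and the tropomyosins Tpm1, Tpm2, Tpm3 and Tpm4. The 10 genes were chosen by symbol, and each matched 1 of the 55492 genes in the table of RNA-seq values from mouse left ventricle. All 10 passed the filter on low values (a mean of at least 10 over all libraries) that left 20576 genes for testing, Tnni1 only through the MI libraries (its mean over the 10 baseline and sham libraries was 9.26). The mice were male C57BL/6 animals aged 8 to 12 weeks. Control mice were PKM2fl/fl, in which an exon of Pkm that is used only by the M2 isoform of pyruvate kinase is flanked by loxP sites. PKM2-/- mice lacked that exon in the whole body after CMV-Cre excision, and Cre was then bred out, so every group was from these lines. Each genotype gave 2 libraries from unoperated hearts (baseline), 3 from hearts taken 3 days after sham surgery and 3 from hearts taken 3 days after permanent ligation of the left anterior descending artery (MI). The labels describe the MI tissue as left ventricle and do not say how much of it was infarct.

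In striated muscle, troponin C binds calcium, troponin I holds the filament off in its absence, and troponin T ties the complex to tropomyosin, a coiled coil that lies along actin and covers or uncovers the sites for myosin. Adult mouse ventricle uses the cardiac forms of troponin I (Tnni3) and troponin T (Tnnt2), shares its troponin C (Tnnc1) with slow skeletal muscle, and uses Tpm1 as its main striated muscle tropomyosin. Tnni1 and Tnnt1 encode the slow skeletal forms, and Tnni1 is also the troponin I of the fetal heart. Tnni2 encodes the fast skeletal form of troponin I. Tpm2, Tpm3 and Tpm4 give muscle forms in some fibres and vessels, and Tpm1, Tpm3 and Tpm4 also give short cytoskeletal forms in most other cells. A value per gene joins all isoforms of that gene.

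Values were normalized counts, that is, reads on a gene divided by the size factor of the library. The libraries held 20623769 to 71855101 reads on genes, and 5 loci that carry ribosomal RNA took 15.8% to 46.0% of them. At baseline these loci took 17.2% and 22.1% in PKM2fl/fl and 43.8% and 39.6% in PKM2-/- libraries. After sham surgery they took 15.8% to 27.8% and 28.5% to 46.0%, and after MI the genotypes overlapped. The part of this share in the genotype comparisons was not tested. Pkm, the targeted gene, had 7779 to 12076 normalized counts in the PKM2fl/fl libraries and 10120 to 16113 in the PKM2-/- libraries. A gene total does not check the label here, since only 1 exon is removed and the other isoform keeps the rest. PKM2fl/fl MI replicate 3 stood apart from the other PKM2fl/fl MI libraries in all cardiac members. The falls after MI in PKM2fl/fl hearts, and the genotype calls after MI that change, are also given without it.

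In uninjured hearts, 4 of the genes dominated. Per kilobase of transcript, Tnni3 stood at 56262 ± 2132 normalized counts (SD, n = 2) in PKM2fl/fl baseline hearts. Tpm1 followed at 46150 ± 310 and Tnnt2 at 42876 ± 3438, and Tpm1 and Tnnt2 did not differ beyond their spread. Tnnc1 came next at 37193 ± 216 per kilobase. Far below lay Tpm4 at 908 ± 21.0, Tpm3 at 477 ± 0.442, Tnnt1 at 169 ± 7.71 and Tpm2 at 127 ± 9.93 per kilobase. The fast and slow skeletal forms of troponin I were the lowest, with Tnni2 at 35.7 ± 5.62 and Tnni1 at 6.61 ± 1.70 per kilobase. In PKM2-/- baseline hearts Tnnt2 stood above Tpm1, at 45786 ± 1399 against 41788 ± 2418 per kilobase, as its mean did in both sham groups. Tnni1 rested on 1 to 49 reads in a library and Tnni2 on 4 to 49, so counting error is a large part of their values.

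Promoter sequence was available for 9 of the 10 genes, in 12 windows from 250 bases before to 50 bases after a RefSeq start (GRCm38.p6). The windows were searched on both strands for motifs known from muscle promoters. MCAT (CATTCC), the core bound by TEAD factors, was present in 3 of the 12 windows and in 14.7% of all 32851 windows. The box TATAAA was present in 1 member window and 13.6% of all windows. The motif AGATAA, which factors of the erythroid and cardiac GATA family bind, was present in 2 member windows and 11.2% of all windows. The CArG and MEF2 motifs were found in 0 of the 12 windows, against 1.63% and 3.19% of all windows. The matches in genes that moved after MI are shown here, with 12 bases on either side, on the strand of the gene, and capitals mark the motif or its reverse complement. The first 5 belong to genes that were lower after MI, and the last to a gene that was higher.
Tnnt2, MCAT, chr1:135836295-135836324, plus strand: tctcctgctgcaCATTCCtccctccgcggg
Tnnt2, GATA, chr1:135836156-135836185, plus strand: ttttaaatagctTTATCTgagcagctggag
Tnnc1, MCAT, chr14:31208242-31208271, plus strand: tgggctgggctgGGAATGtagcaggaggtg
Tpm1, MCAT, chr9:67049252-67049281, minus strand: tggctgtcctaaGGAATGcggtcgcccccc
Tnnt1, TATA, chr7:4515988-4516017, minus strand: tcagcacctagcTATAAAtccagggggtgc
Tpm3, GATA, chr3:90072607-90072636, plus strand: agccgcaagcacAGATAAaggttcaaacct
Counted from the start, the MCAT core lay at -27 to -22 in Tnnt2, -58 to -53 in Tnnc1 and -56 to -51 in Tpm1, with the core on the minus strand relative to the gene in Tnnc1 and Tpm1. A match is a description of the letters only.

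After MI, the cardiac troponins and Tpm1 fell together and the other tropomyosins rose. In PKM2fl/fl hearts, 8 of the 10 genes passed the limma test at an adjusted p under 0.05, 3 of them higher and 5 lower, where 50.1% of all genes tested passed, 24.8% higher and 25.3% lower. All 8 changed by at least 2-fold, as did 23.5% of all genes. The same comparison without PKM2fl/fl MI replicate 3 still called 8 members, but the 5 falls were smaller. On the log2 scale they were then -1.47 for Tnni3, -1.25 for Tnnt2, -1.33 for Tnnt1, -1.11 for Tnnc1 and -0.95 for Tpm1. The fall of Tpm1 was thus under 2-fold without that library. The rises were then 1.76 for Tpm2, 1.43 for Tpm3 and 1.71 for Tpm4. In PKM2-/- hearts the same count of 8, again 3 higher and 5 lower, stood against 56.8% of all genes, 28.7% higher and 28.1% lower, with 8 at 2-fold or more against 28.8%. The median size of change over the 10 genes was 1.54 on the log2 scale in PKM2fl/fl and 1.45 in PKM2-/- hearts, and over all genes tested it was 0.51 and 0.60. With reads scaled to the library total, 2368 genes were higher and 3633 lower in PKM2fl/fl hearts, in place of 5097 and 5202, and 7217 higher and 1891 lower in PKM2-/- hearts, in place of 5899 and 5780. Under that scaling 8 members passed in PKM2fl/fl hearts, 3 higher and 5 lower, and 7 in PKM2-/- hearts, 4 higher and 3 lower. The 4 higher ones included Tnni1, from which no rise is read because it reached the filter only through the MI libraries. Sham and MI libraries did not overlap in 8 members in PKM2fl/fl hearts (59% of all genes) and in 9 members in PKM2-/- hearts (62.3%). The member added in PKM2-/- hearts was Tnni1, which reached the filter only through the MI libraries, so its separation is not read as a result.

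**Figure D1:**
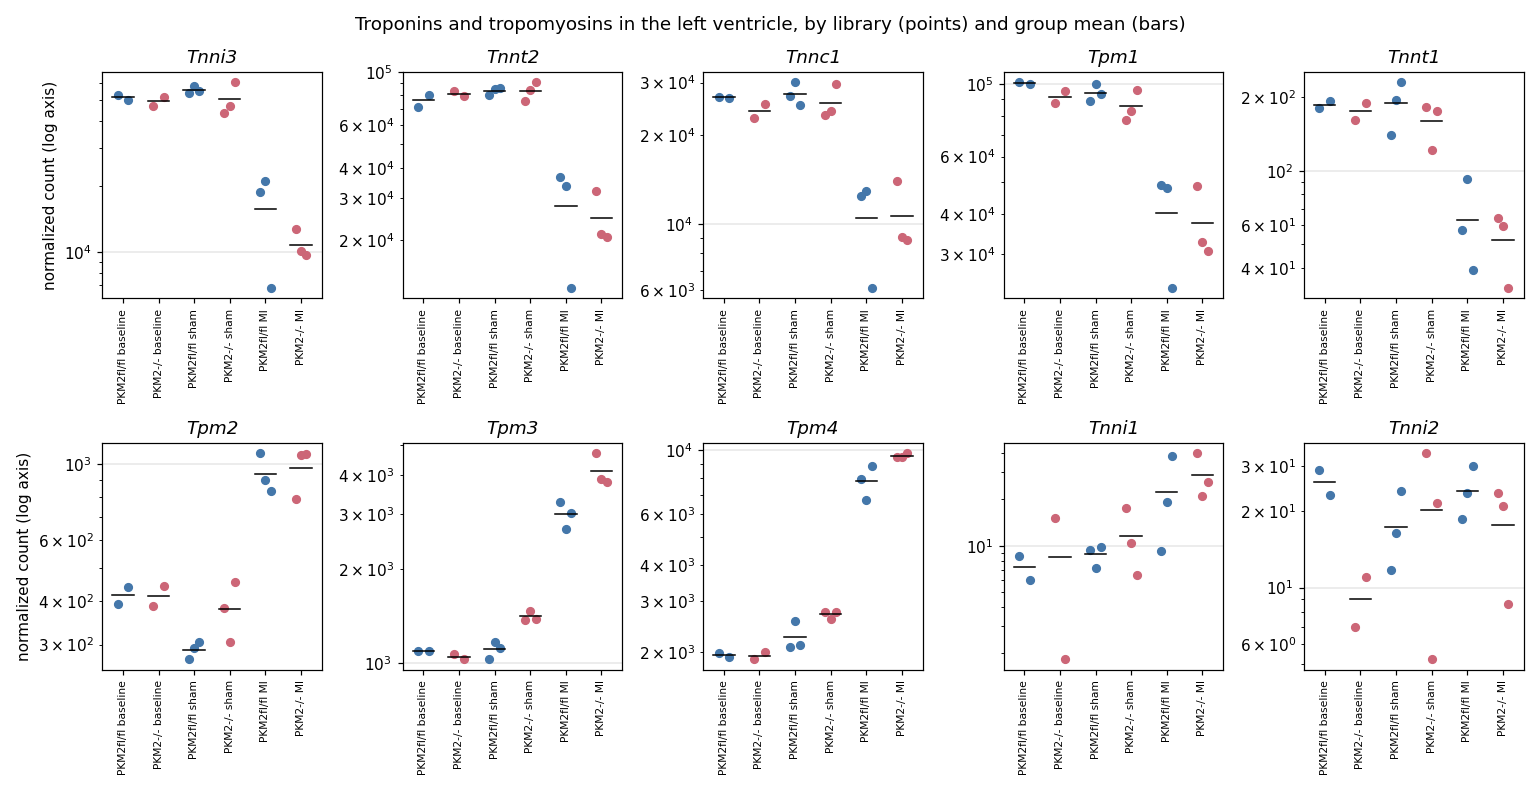
Normalized counts of the 10 genes (vertical axes, logarithmic, a separate scale in each panel) in each of the 16 libraries, by genotype and treatment; points are libraries and bars are group means. Tnni3, Tnnt2, Tnnc1, Tpm1 and Tnnt1 are low in every MI library, Tpm2, Tpm3 and Tpm4 are high in every MI library, and Tnni1 and Tnni2 do not pass 39.7 normalized counts in any library.

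Tnni3 (chromosome 7, 4518305 to 4522718, GRCm38.p6), cardiac troponin I, showed the largest fall among the members. The PKM2fl/fl sham hearts had 54112, 58207 and 55145 normalized counts, and the MI hearts had 18919, 21302 and 6807. The PKM2-/- sham hearts had 43573, 47223 and 60550, and the MI hearts had 12705, 10054 and 9615. Every MI library lay below every sham library in both genotypes. The fall was 3.99-fold in PKM2fl/fl hearts (log2 fold change -1.99, SE 0.31, adjusted p = 8.54e-05, limma) and 4.66-fold in PKM2-/- hearts (-2.22, SE 0.31, adjusted p = 2.22e-05, limma). In these bulk samples, fewer cardiomyocytes and less RNA per cardiomyocyte cannot be told apart.

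Tnnt2 (chromosome 1, 135836315 to 135852268), cardiac troponin T, went from 80596, 84657 and 85563 normalized counts in PKM2fl/fl sham hearts to 36748, 33570 and 12666 after MI. The PKM2-/- values went from 75736, 84490 and 90728 to 32172, 21181 and 20621. The third PKM2fl/fl MI heart was thus the lowest of all. The groups did not overlap, and Tnnt2 was 3.34-fold lower in PKM2fl/fl hearts (adjusted p = 3.01e-04, limma) and 3.46-fold lower in PKM2-/- hearts (adjusted p = 1.79e-04, limma).

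Tnnc1 (chromosome 14, 31208312 to 31211729), the calcium sensor, fell less. The PKM2fl/fl sham hearts had 27111, 30104 and 25194 normalized counts and the MI hearts 12468, 13005 and 6114. The PKM2-/- sham hearts had 23327, 24049 and 29569 and the MI hearts 14032, 9056 and 8864. Both groups were again separate, with a fall of 2.75-fold in PKM2fl/fl (log2 -1.46, SE 0.24, adjusted p = 1.66e-04) and 2.45-fold in PKM2-/- hearts (log2 -1.29, SE 0.24, adjusted p = 3.47e-04, limma). In the GENCODE annotation (GRCm39) Nisch overlaps Tnnc1 on the opposite strand, and its value exceeded that of Tnnc1 by 3894 to 5429 normalized counts in every library. How the counting treated reads in overlapping genes is not given in the sources used here, so the same reads may stand in both values.

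Tpm1 (chromosome 9, 67022590 to 67049672), the main tropomyosin of the ventricle, had 89063, 100521 and 93183 normalized counts in PKM2fl/fl sham and 49215, 47961 and 23666 in PKM2fl/fl MI hearts. The PKM2-/- hearts had 77565, 83043 and 96225 after sham surgery and 48781, 32731 and 30668 after MI. The fall of Tpm1 was the smallest among the 5 lower genes, at 2.46-fold (adjusted p = 8.84e-04, limma) and 2.33-fold (adjusted p = 0.00117, limma). With reads scaled to the library total, the falls of Tpm1 and Tnnc1 in PKM2-/- hearts were -0.71 and -0.78 on the log2 scale and did not pass (adjusted p = 0.181 and 0.0835, limma).

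Tnnt1 (chromosome 7, 4504569 to 4515975), slow skeletal troponin T, is the low-level member that fell. Its PKM2fl/fl values were 140, 194 and 230 normalized counts after sham surgery and 57.2, 92.2 and 39.3 after MI. Its PKM2-/- values were 182, 121 and 175, and then 64.0, 59.7 and 33.2. Sham and MI libraries were separate, and the fall was 3.08-fold in both genotypes (adjusted p = 4.22e-04 in PKM2fl/fl and 3.24e-04 in PKM2-/-, limma). Tnnt1 lies 2330 bases from the end of Tnni3, on the same strand and downstream of it. The Tnnt1 value was 0.259% to 0.419% of the Tnni3 value in sham libraries and 0.308% to 0.604% in MI libraries. Whether some of these reads ran on from Tnni3 was not tested.

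The tropomyosins outside the cardiac sarcomere moved the other way. Tpm4 (chromosome 8, 72135288 to 72153142), a mainly cytoskeletal gene, had 2082, 2570 and 2116 normalized counts in PKM2fl/fl sham hearts and 7981, 6734 and 8857 in MI hearts. In PKM2-/- hearts it had 2759, 2605 and 2749 after sham surgery and 9445, 9454 and 9758 after MI. No MI library came near a sham library, and the PKM2-/- MI libraries were nearly level with each other. The rise was 3.48-fold in PKM2fl/fl (log2 1.80, SE 0.11, adjusted p = 3.97e-08) and 3.53-fold in PKM2-/- hearts (log2 1.82, SE 0.11, adjusted p = 2.21e-08, limma). Gm26586, which overlaps Tpm4 on the opposite strand, had 201 to 1131 normalized counts.

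Tpm3 (chromosome 3, 90072651 to 90100902), which gives slow muscle and cytoskeletal forms, went from 1030, 1171 and 1120 to 3286, 2689 and 3020 normalized counts in PKM2fl/fl hearts. The PKM2-/- values went from 1379, 1468 and 1386 to 4693, 3890 and 3801. The rises were 2.70-fold (adjusted p = 7.66e-08, limma) and 2.91-fold (adjusted p = 3.57e-08, limma). After sham surgery and after MI, every PKM2-/- library was above every PKM2fl/fl library, where genotypes did not overlap for 16.5% and 18.9% of all genes. At baseline the PKM2-/- values were the lower ones, at 1032 and 1068 against 1097 and 1098 (log2 difference -0.06, SE 0.12).

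Tpm2 (chromosome 4, 43513726 to 43523583), a tropomyosin of slow fibres and smooth muscle, had 272, 293 and 304 normalized counts in PKM2fl/fl sham hearts and 1071, 897 and 834 in MI hearts. Among PKM2-/- hearts it had 383, 306 and 455 after sham surgery and 791, 1057 and 1066 after MI. The rise was 3.20-fold (adjusted p = 8.43e-07, limma) and 2.55-fold (adjusted p = 3.40e-06, limma), with no overlap in either genotype. Car9, whose end meets that of Tpm2, had 17.0 to 72.2 normalized counts.

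The other forms of troponin I did not pass the test. Tnni1 (chromosome 1, 135783033 to 135810989), the fetal and slow skeletal form, had 9.40, 7.19 and 9.80 normalized counts in PKM2fl/fl sham and 9.27, 19.3 and 38.4 in PKM2fl/fl MI hearts. In PKM2-/- hearts it had 17.7, 10.4 and 6.47 after sham surgery and 39.7, 21.0 and 26.0 after MI. The groups overlapped in PKM2fl/fl and not in PKM2-/- hearts. The log2 difference was 1.05 (SE 0.61, adjusted p = 0.167, limma) and 1.31 (SE 0.61, adjusted p = 0.0820, limma). On the recovered reads the log2 difference was 1.36 in both genotypes, with an adjusted p of 0.0464 and 0.0492 in edgeR and of 0.0596 and 0.0616 in DESeq2. Since Tnni1 reached the filter only through the MI libraries, no rise is read from these tests. Tnni2 (chromosome 7, 142441816 to 142444410), the fast skeletal form, ranged from 5.22 to 33.8 in sham and from 8.66 to 30.2 in MI libraries, and the groups overlapped in both genotypes (log2 difference 0.48 and 0.03, adjusted p = 0.496 and 0.967, limma).

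**Figure D2:**
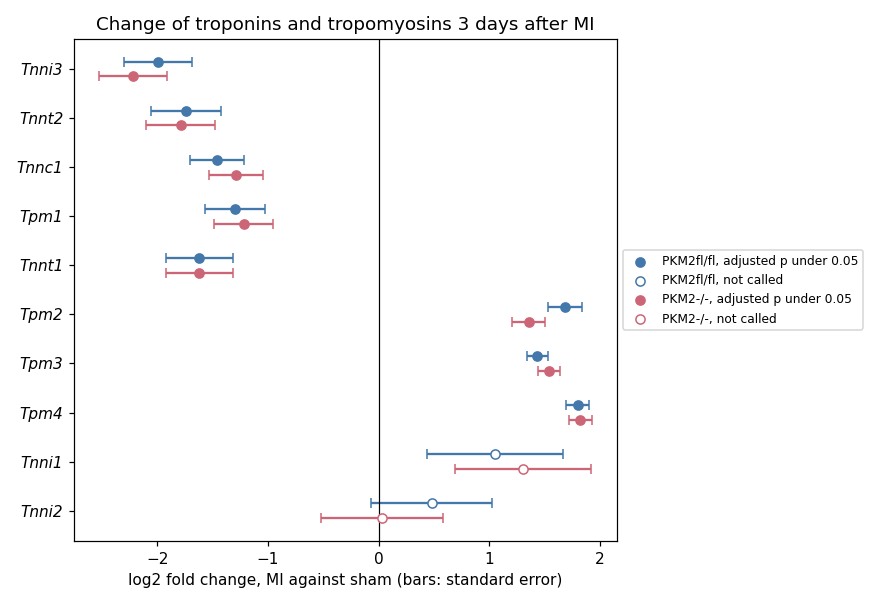
Log2 fold change of each of the 10 genes after MI against sham (horizontal axis) in PKM2fl/fl (blue) and PKM2-/- hearts (red); bars are standard errors of the limma fit and filled points passed an adjusted p under 0.05. The cardiac forms and Tnnt1 sit between -2.22 and -1.22, Tpm2, Tpm3 and Tpm4 between 1.35 and 1.82, and the open points of Tnni1 and Tnni2 have the widest bars.

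Ratios between members within a library hardly depend on how libraries are scaled. The exception is the 1 added to each value, which matters for the low values of Tnni1 and Tnni2. Such ratios, 9 in number, were compared by an exact permutation test within genotype, two-sided, over 400 arrangements. The smallest p this design can give is 0.005. The troponin genes did not fall in step. Tnni3 lost ground to Tnnt2 by 0.34 on the log2 scale (exact p = 0.005, adjusted over the 9 ratios 0.00643), while Tnnc1 and Tpm1 gained on Tnnt2 by 0.39 (exact p = 0.01, adjusted 0.0112) and 0.50 (exact p = 0.005, adjusted 0.00643). Tnnt1 against Tnnt2 differed by 0.14 (exact p = 0.525). These tests set MI against sham only. In PKM2fl/fl hearts, log2 Tpm1/Tnnt2 was 0.322 to 0.500 at baseline and 0.421 to 0.902 after MI, so the groups overlapped. Log2 Tnnc1/Tnnt2 overlapped there too, at -1.59 to -1.42 and -1.56 to -1.05. In PKM2-/- hearts, both ratios were lower at baseline than after MI. Tpm1/Tnnt2 was 0.0793 to 0.260 against 0.573 to 0.628, and Tnnc1/Tnnt2 -1.87 to -1.65 against -1.23 to -1.20.

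Per kilobase of transcript, Tnni3 stood at 1.29 ± 0.0422 times Tnnt2 in PKM2fl/fl sham and 1.09 ± 0.123 times in MI hearts (SD, n = 3). In PKM2-/- hearts the same ratio was 1.16 ± 0.113 after sham surgery and 0.863 ± 0.0850 after MI. Whether it lies above or below 1 depends on the transcript lengths used. Without division by length, Tnni3 was 55.9% to 66.7% of Tnnt2 in PKM2-/- sham and 39.5% to 47.5% in PKM2-/- MI hearts. Tnnc1 stood at 0.810 ± 0.0770 times Tnnt2 in PKM2fl/fl sham and 0.993 ± 0.180 in MI hearts, and at 0.754 ± 0.0510 and 1.06 ± 0.0110 in PKM2-/- hearts. Tpm1 went from 0.914 ± 0.0428 to 1.25 ± 0.230 times Tnnt2 in PKM2fl/fl and from 0.829 ± 0.0315 to 1.23 ± 0.0235 in PKM2-/- hearts.

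The largest shifts were within families. Against Tpm1, Tpm4 gained 3.07, Tpm2 2.78 and Tpm3 2.75 on the log2 scale, and against Tnni3, Tnni2 gained 2.36 (each exact p = 0.005, the smallest possible, adjusted 0.00643). Tnni1 to Tnni3 differed by 3.29, but Tnni1 reached the filter only through the MI libraries, so no test of this ratio is read. The levels of Tnni1 and Tnni2 did not pass the test by themselves, and their ratios also hold the fall of Tnni3. The isoform classes kept their order all the same. Tnni3 made up at least 98.99% of the troponin I mRNA per transcript length in every library, and Tnnt2 at least 99.5% of the troponin T mRNA.

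**Figure D3:**
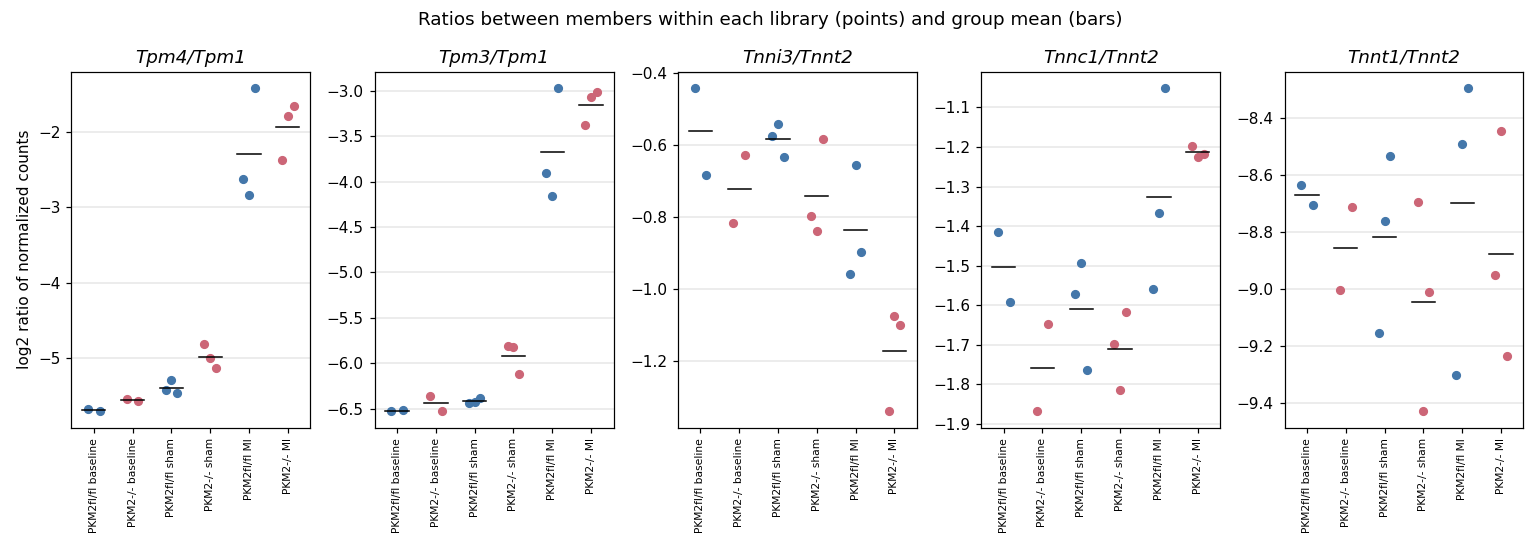
Log2 ratio of normalized counts between 2 members (vertical axes, a separate scale in each panel) in each library, by group; points are libraries and bars are group means. Tpm4/Tpm1 and Tpm3/Tpm1 rise with MI, and Tnni3/Tnnt2 is lowest in the PKM2-/- MI libraries. Tnnc1/Tnnt2 is higher in every MI than in every sham library of PKM2-/- hearts, while in PKM2fl/fl hearts sham and MI overlap. Tnnt1/Tnnt2 shows no separation.

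The tropomyosin pool changed its make-up. Per transcript length, Tpm1 was 96.8% of tropomyosin mRNA in PKM2fl/fl baseline and 96.4% ± 0.122 in PKM2fl/fl sham hearts (SD, n = 3). After MI it was 76.3% ± 9.33, with single hearts from 65.6% to 82.8%. In PKM2-/- hearts it was 96.6% at baseline, 95.1% ± 0.473 after sham surgery and 71.8% ± 4.60 after MI, with single hearts from 68.3% to 77.0%. The share went mostly to Tpm4, which made up 2.34% ± 0.143 of the pool in PKM2fl/fl sham and 16.6% ± 7.19 in MI hearts, and 3.07% ± 0.325 and 19.2% ± 3.64 in PKM2-/- hearts. Tpm3 went from 1.08% ± 0.0225 to 5.83% ± 1.88 and from 1.50% ± 0.168 to 7.67% ± 0.547. Tpm2 stayed the smallest, at 1.25% ± 0.265 and 1.31% ± 0.415 after MI. The lowest Tpm1 share, 65.6%, belonged to PKM2fl/fl MI replicate 3.

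**Figure D4:**
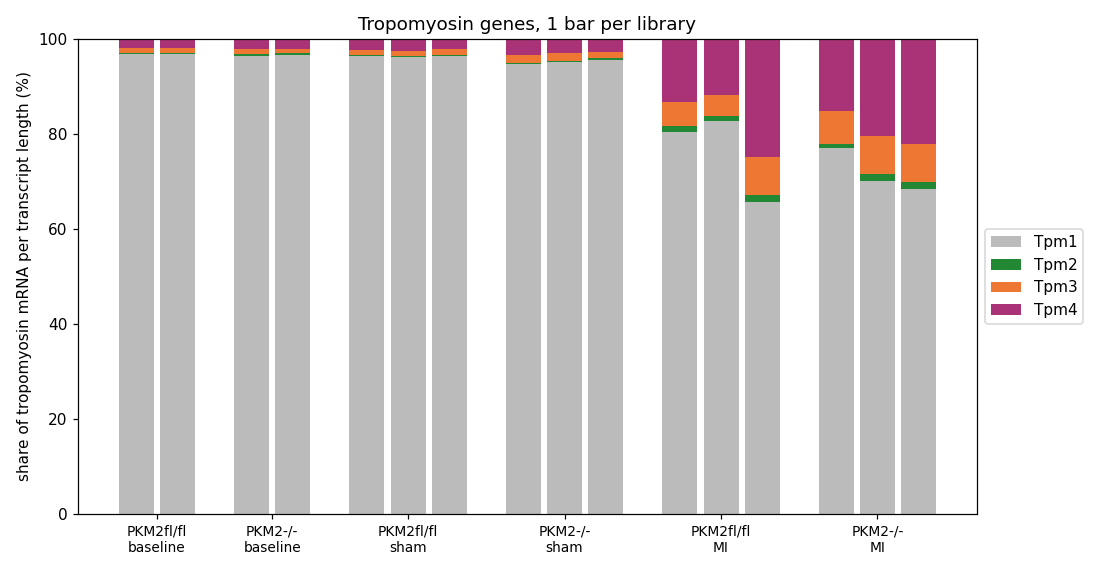
Share of tropomyosin mRNA per transcript length taken by Tpm1, Tpm2, Tpm3 and Tpm4 (vertical axis, percent, bars stacked from 0 to 100), 1 bar for each library. Tpm1 takes 94.7% to 96.8% at baseline and after sham surgery and 65.6% to 82.8% after MI, where Tpm4 takes the next largest part.

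Between genotypes, few members differed. At baseline 0 of the 10 genes passed (0.00972% of all genes did, limma), 1 was at an unadjusted p under 0.05 (3.64% of all genes), and DESeq2 and edgeR called 0 members too. That gene was Tnni2, with 29.0 and 23.2 normalized counts in PKM2fl/fl and 6.99 and 11.0 in PKM2-/- hearts (log2 difference -1.46, SE 0.67, adjusted p = 1). After sham surgery 0 of the 10 passed in limma (0.00972% of all genes), and likewise 0 in DESeq2 and edgeR, while Tpm3, Tpm4 and Tpm2 were at an unadjusted p under 0.05, as were 9.95% of all genes. The same 3 were the members whose genotypes did not overlap after sham surgery (16.5% of all genes). Tpm3 was 0.35 higher on the log2 scale in PKM2-/- sham hearts (SE 0.10, adjusted p = 0.203), Tpm4 0.27 higher (SE 0.11, adjusted p = 0.406) and Tpm2 0.38 higher (SE 0.15, adjusted p = 0.421).

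After MI, Tpm3 was the 1 member that passed, where 0.967% of all genes did. With the values given above, Tpm3 was 1.38-fold higher in PKM2-/- than in PKM2fl/fl MI hearts (log2 0.46, SE 0.10, adjusted p = 0.0454, limma). The call is a narrow one, although it also held in DESeq2 (adjusted p = 0.00163). It was lost without any 1 of the other 5 MI libraries (log2 0.36 to 0.53, adjusted p 0.0658 to 0.178), under edgeR (adjusted p = 0.0505), and when only the MI groups entered the fit (adjusted p = 0.237). Tpm4 was 0.29 higher in PKM2-/- MI hearts (SE 0.11, adjusted p = 0.177). Tpm3 and Tpm4 were the 2 members at an unadjusted p under 0.05 (17% of all genes) and the 2 with no overlap between genotypes after MI (18.9% of all genes). The values of Tnni3 were 18919, 21302 and 6807 in PKM2fl/fl and 12705, 10054 and 9615 in PKM2-/- MI hearts, so 1 control heart was below all knockouts and 2 above them (log2 difference -0.39, SE 0.31, adjusted p = 0.561). Without PKM2fl/fl MI replicate 3, Tnni3 was lower by test in PKM2-/- hearts (log2 -0.91, adjusted p = 0.00241), Tpm4 passed as well (log2 0.38, adjusted p = 0.0251), and the genes called overall went from 199 to 2271. That library was singled out for its low cardiac values, Tnni3 among them, so no genotype difference is read from this fit. The call of Tnni3 changed in 1 of the 6 fits without 1 MI library (log2 -0.91 to -0.08). In the same comparison, 9 of 10 leukocyte markers had higher values in PKM2-/- hearts, with a median log2 difference of 0.36, and 0 of the 10 passed in limma (3 at an unadjusted p under 0.05). Of 10 cardiomyocyte markers 0 had higher values, with a median of -0.64, and of 9 genes of the thick filament and titin 0 had higher values, with a median of -0.44; 0 of these passed either (5 and 1 at an unadjusted p under 0.05). The part of these cells in the differences of Tpm3 and Tnni3 was not tested.

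No member passed the test of a difference between genotypes in the response to MI. The interaction passed for 0 of 20576 genes in limma (1703, or 8.28%, at an unadjusted p under 0.05, 0 of them members), for 0 in edgeR and for 52 in DESeq2, 0 of them members. Its largest values among the members were -0.45 (SE 0.78) for Tnni2 and -0.33 (SE 0.22) for Tpm2, on the log2 scale. Tnnt1 had the same 3.08-fold fall in both genotypes, and its interaction had an SE of 0.43. With standard errors from 0.14 to 0.87, small differences in response could not be detected. Among the 9 ratios, tested over 2400 arrangements within treatment, 0 passed between genotypes after adjustment. The nearest was Tnni3 to Tnnt2, which was 0.22 lower on the log2 scale in PKM2-/- hearts (exact p = 0.00583, adjusted 0.0525), followed by Tpm3 to Tpm1, 0.37 higher (exact p = 0.0192, adjusted 0.0863).

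Between sham and baseline hearts, 1 member passed. Over both genotypes, Tpm4 was 1.26-fold higher in sham than in baseline hearts (log2 0.34, SE 0.08, adjusted p = 0.0255, limma), where 6.54% of all genes tested passed and 4.52% of all genes tested passed as higher. Its baseline values were 1991 and 1927 normalized counts in PKM2fl/fl and 1890 and 1999 in PKM2-/- hearts. The call of Tpm4 also held in edgeR (adjusted p = 0.0389) and DESeq2 (adjusted p = 0.00356). It was lost in limma without any 1 of 6 of the 10 libraries (adjusted p 0.0541 to 0.101) and with no filter on low values (adjusted p = 0.0511). It was also lost with the replicate block (adjusted p = 0.0693) and with reads scaled to the library total (adjusted p = 0.656). Tpm3 differed by 0.22 (adjusted p = 0.118) and Tpm2 by -0.33 (adjusted p = 0.129). The cardiac forms showed differences of at most 0.10 in size. In the same comparison 9 of 10 leukocyte markers, 4 of 8 fibroblast markers and 3 of 4 atrial markers (median log2 difference 2.14) were higher by test, and their part in the rise of Tpm4 was not tested.

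Other parts of the sarcomere fell with the cardiac troponins. Of 14 partners of the thin filament (actins, tropomodulins, leiomodins, nebulin relatives and capping proteins), 8 were lower and 1 higher after MI in PKM2fl/fl hearts, with a median log2 fold change of -0.95, and 9 lower and 2 higher in PKM2-/- hearts, with a median of -1.22. The most firmly changed were Tmod4, a capping protein of filament ends, at -2.27 and -2.86, Nebl, which encodes nebulette, at -1.29 and -1.94, and Tmod1, the cardiac capping protein, at -1.11 and -1.45 (each adjusted p of 0.000623 or less, limma). Of 9 genes of the thick filament and titin, 9 were lower in PKM2fl/fl and 8 in PKM2-/- hearts, with medians of -1.93 and -1.99. Myl3 and Myl2, the essential and regulatory light chains of the ventricle, changed by -1.95 and -2.07 in PKM2fl/fl hearts, close to the -1.99 of Tnni3. Myl2 and Myl3 are also among the cardiomyocyte markers. Over all genes tested the medians were -0.00254 and 0.0105.

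Most fibroblast and leukocyte markers moved in the direction of Tpm2, Tpm3 and Tpm4, and smooth muscle and endothelial markers were mixed. Of 8 fibroblast markers, 6 were higher and 1 lower after MI in each genotype, with medians of 1.62 and 1.76, and their summed level went from 25357 to 46994 normalized counts in sham to 143683 to 198375 in MI libraries. Postn, which encodes periostin, led them with 3.82 and 3.59. Of 10 leukocyte markers tested, 7 were higher in each genotype, with medians of 1.67 and 1.83, and the sum went from 5340 to 10933 to 21114 to 37830. Cd68, a macrophage marker, changed by 3.09 and 2.78. Of 7 smooth muscle markers, 3 were higher and 2 lower in PKM2fl/fl hearts, and 2 higher and 4 lower in PKM2-/- hearts, with medians of -0.47 and -0.56, Tagln at 1.81 and 1.26 and Myocd at -1.20 and -2.06. Of 6 endothelial markers, 2 were higher in each genotype, and 1 and 2 lower, with medians of 0.05 and -0.07. No marker was at 0 in all libraries, and the part of these cells in the tropomyosin values was not tested.

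Markers of cardiomyocytes fell, 9 of 10 in PKM2fl/fl and 10 of 10 in PKM2-/- hearts, with medians of -1.57 and -2.02. The 12 skeletal muscle markers summed to 678 to 1689 normalized counts in a library. Of them 5 reached the filter, and 1 was higher in PKM2fl/fl and 2 were lower in PKM2-/- hearts. Tnnt3, fast skeletal troponin T, was the higher one, at 14.7 to 36.6 normalized counts in sham and 34.3 to 96.5 in MI libraries (log2 1.33, adjusted p = 0.0345, and 1.02, adjusted p = 0.0876, limma). Tnnc2, fast skeletal troponin C, had 0 to 6.35 normalized counts and was under the filter. Of 4 atrial markers tested, 1 was higher in each genotype, Nppa, which encodes atrial natriuretic peptide, at 1.28 and 1.33. The other 3 did not pass, with Myl7, the atrial light chain, at -1.72 and -1.62, Sln at -1.17 and -0.81 and Myl4 at -0.86 and -0.997, and the medians of the 4 were -1.02 and -0.91. Of 6 erythroid markers, 0 passed in limma in either genotype, with 0 and 1 at an unadjusted p under 0.05 and medians of 0.17 and 0.54. Hba-a1, a hemoglobin gene, stood at 0.49 and 1.01, and Slc4a1, the anion exchanger of red cells, at 0.87 and -0.12.

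**Figure D5:**
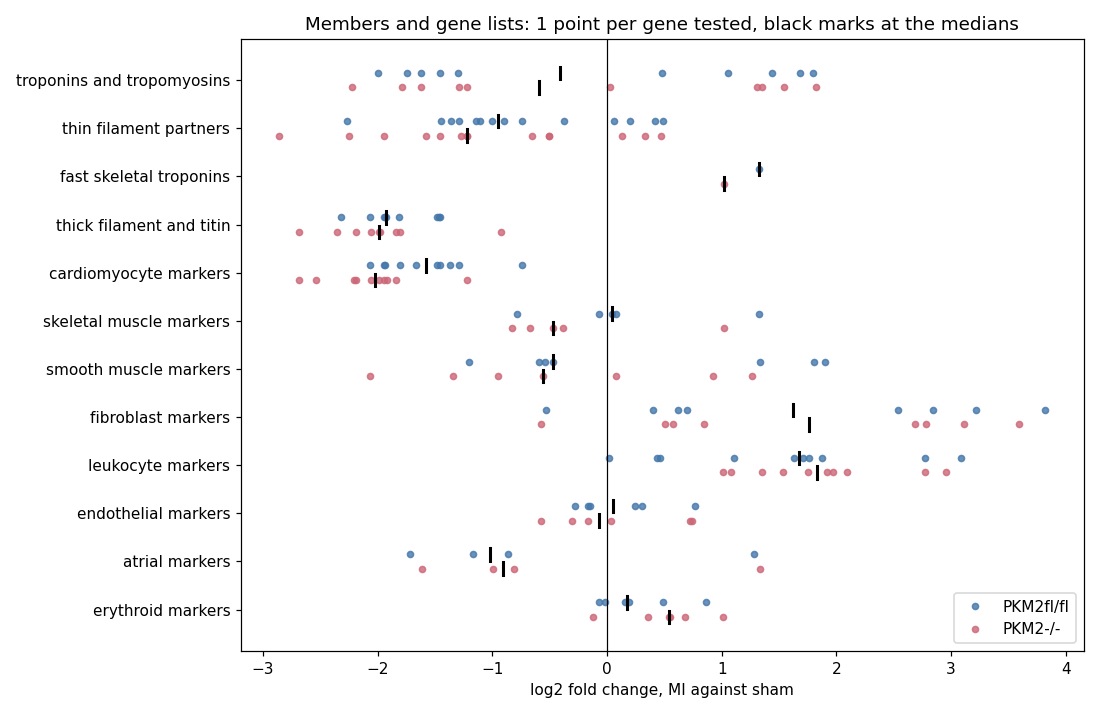
Log2 fold change after MI against sham (horizontal axis) of the 10 genes and of each tested gene in the 11 comparison lists, in PKM2fl/fl (blue) and PKM2-/- hearts (red); each point is a gene and black marks are medians. The troponins and tropomyosins split into a group near the thick filament and cardiomyocyte genes (medians -1.93 and -1.57 in PKM2fl/fl) and a group on the side of the fibroblast and leukocyte genes (medians 1.62 and 1.67).

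The genes most like 3 of the members over the 16 libraries were ranked by Pearson correlation on the log2 scale among 13470 genes with a mean of at least 100. The libraries share treatment and tissue make-up, so the values describe these samples only. Nearest to Tnni3 was Mb, which encodes myoglobin (r = 0.999), followed by Mtres1, Gm47889, Smyd1 and Gm49540 (r = 0.995 to 0.996). Gm47889 overlaps Mtres1 on the opposite strand in the GENCODE annotation, and without strand their reads cannot be told apart. Nearest to Tpm4 were Gm16091 (r = 0.999, with 60.8% to 67.2% of the Tpm4 value in each library, so that shared reads cannot be told apart from likeness), Iqgap1, Anxa2, Vim and Actb (r = 0.996 to 0.997), of which Actb encodes cytoplasmic actin and Vim the filament protein vimentin. For Tnni1 the nearest genes were Eps15 (r = 0.900), Tbc1d23, Gsdmd, U2af1 and Haus3, a looser likeness in a gene with few reads.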

How the data were processed

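RNA from left ventricle was sequenced in 16 libraries after depletion of ribosomal RNA. The deposited signal values are read counts per gene divided by DESeq2 size factors; the authors trimmed reads with PRINSEQ, aligned them with HISAT2 to mm10 and counted them with featureCounts. Tool versions, strand and overlap settings are not given in the sources used here. The library kit does not keep strand, so overlapping genes cannot be separated. Dividing each column by its smallest step gave whole reads for 100% of values above 0 (tolerance 0.01). The authors' own baseline test columns (mean, log2 fold change, its error, test statistic and p-values) were not used, and 0 value columns lacked a sample.

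Values were tested as log2(value + 1) with limma 3.58.1 (trend) in 1 fit of 6 groups over 20576 genes with a mean of at least 10, with Benjamini-Hochberg adjustment over all of them. Fold changes of low genes are understated on this scale. Alternatives were edgeR 4.0.16 (quasi-likelihood) and DESeq2 1.42.0 on recovered reads, TMM and library-total scaling, pseudocounts of 0.1 and 10, no filter, only the groups compared, a 2-fold minimum, a replicate block and leaving out each library. The models were tested on simulated data. Ratios used exact permutation tests. Levels between genes were divided by the length of the canonical GENCODE transcript. Promoter windows and coordinates are from RefSeq (GRCm38.p6, the build of mm10), and Tnni2 has no window.

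Groups came from the sample labels. Each library is labelled as a biological replicate, and p-values measure the spread between these samples. Libraries of a group differed by more than sampling noise (lowest chi-square per degree of freedom 13.7). Replicate numbers did not pair the samples (36 pairs, correlation of deviations from the group means -0.196 to 0.126). The members, comparison lists and ratios were chosen with earlier results of these data known. The named genes were the 10 members, Pkm, up to 3 genes of each list with the smallest larger p of the MI comparisons, and the 5 genes most correlated with Tnni3, Tnni1 and Tpm4.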

Additional observations from a re-analysis of the deposited data

How the results depend on the processing

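After MI against sham, the members called stayed at 8 in each genotype when any 1 library was left out, while genes called ranged from 8909 to 10214 in PKM2fl/fl and from 10495 to 11039 in PKM2-/- hearts. With a 2-fold minimum, 4832 and 5923 genes were called, and scaling to the library total gave 6001 in PKM2fl/fl hearts. That scaling moved the median of all genes by -0.17 in PKM2fl/fl and 0.51 in PKM2-/- hearts, by -0.58, -0.32 and 0.36 between genotypes at baseline, after sham and after MI, and by 0.68 in the interaction, and under it Tnni1 passed in PKM2-/- hearts (1.78). Tnni1 also passed there with a pseudocount of 10 (0.86) and with only the groups compared (1.31). Since Tnni1 reached the filter only through the MI libraries, no rise is read from these passes.

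Between genotypes after MI, the 1 call among members became 0 with a 2-fold minimum, edgeR, no filter (Tpm3 adjusted p = 0.0664), only the groups compared or library-total scaling (Tpm3 0.83), and ranged from 0 to 3 with 1 library left out. Genes called there were 85 with a 2-fold minimum, 1033 in DESeq2, 6 with only the groups compared, 121 with library-total scaling (101 higher and 20 lower, in place of 81 and 118) and 11 to 2271 with 1 library left out. At baseline, genes called were 17 in DESeq2, 1 in edgeR, 42 with only the groups compared, 9 with a pseudocount of 0.1, 44 with library-total scaling and 0 to 40 with 1 library left out. After sham surgery they were 1 with a 2-fold minimum, 273 in DESeq2, 0 with no filter, 9 with only the groups compared, 113 with library-total scaling and 0 to 89 with 1 library left out, and members stayed at 0. The interaction called 52 genes in DESeq2, 54 with library-total scaling and 0 to 484 with 1 library left out, the last without PKM2fl/fl MI replicate 3. For sham against baseline, members called became 0 with a 2-fold minimum, no filter (Tpm4 adjusted p = 0.0511) or library-total scaling (Tpm4 0.42), and ranged from 0 to 1 with 1 library left out, and genes called were 466 with a 2-fold minimum, 662 with library-total scaling (627 higher and 35 lower, in place of 930 and 416), and 688 to 1517. The cause of these changes was not tested.

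With the replicate block, members called became 0 between genotypes after MI (Tpm3 adjusted p = 0.0747) and for sham against baseline (Tpm4 adjusted p = 0.0693), and genes called were 1 at baseline, 0 after sham surgery and 75 after MI between genotypes. The numbers do not pair the samples (1 of 36 same-numbered pairs correlated above 0.1). The block changed no other call among members.

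Without 1 library, the genotype difference ranged from -0.26 to -0.18 for Tnni3/Tnnt2 (passing in 4 of 16 cases), from 0.29 to 0.48 for Tpm3/Tpm1 (2 cases) and from 0.21 to 0.44 for Tpm4/Tpm1 (1 case, without PKM2fl/fl MI replicate 3). No called ratio or member changed its sign. Read depth limits Tnni1 and Tnni2 most, since they rest on at most 49 reads in a library.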

Other observations

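A gene that overlaps Tnnc1 followed it across the libraries; it was chosen after its values were seen. In the GENCODE annotation (GRCm39), Nisch, which encodes nischarin, runs across Tnnc1 on the opposite strand, while its RefSeq model ends before Tnnc1. Nisch had 29540 to 34329 normalized counts in PKM2fl/fl sham hearts and 10478 to 17897 in PKM2fl/fl MI hearts, and it passed the limma test as lower after MI in both genotypes (log2 -1.08, adjusted p = 3.27e-04, and -0.99, adjusted p = 5.30e-04). The Nisch value minus the Tnnc1 value stayed between 3894 and 5429 in all 16 libraries. It was 4210 ± 144 in PKM2fl/fl sham and 4819 ± 549 in PKM2fl/fl MI hearts, and 4410 ± 116 and 4594 ± 159 in PKM2-/- hearts (SD, n = 3). The values of Nisch and Tnnc1 cannot be told apart by strand here, and how reads in overlapping genes were counted is not given in the sources used here. Reads counted for both genes cannot be told apart from reads of Nisch alone, so the fall of Nisch is no independent value.

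Gm16091, the gene most like Tpm4, had 60.8% to 67.2% of the Tpm4 value in each library, with 64.9% ± 0.665 in PKM2fl/fl sham and 64.2% ± 1.41 in PKM2fl/fl MI hearts. Its position was not analysed here, and whether reads of Tpm4 were also counted for it was not tested. Gm26586, which overlaps Tpm4 on the opposite strand in GENCODE, had 201 to 1131 normalized counts, and Dnaaf3, which overlaps the upstream end of Tnni3, had 27.4 to 168.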
